A study of Mus musculus with 2 samples.

Results

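The genes described here encode the enzymes that build triglyceride from glycerol 3-phosphate: Gpd1, Gpam, Agpat1, Agpat2, Agpat3, Lpin1, Lpin2, Lpin3, Dgat1 and Dgat2. They were chosen by symbol from what the enzymes are known to do, at a time when earlier results of these data were known. All 10 were found among the 46095 genes of the count table. The RNA came from C3H10 cells, a mouse mesenchymal precursor line that forms adipocytes after induction. The samples are labelled C57BL/6, and this label was not checked against the strain from which the line was derived. The control library was made from cells transfected with a negative control antisense oligonucleotide (ASO), a short strand that directs cleavage of the RNA it pairs with, and the MALAT1-knockdown library from cells that received a MALAT1 ASO, and which of the study's MALAT1 ASOs this was is not given in the sources used here. Both ASOs were used at 100 nM for 8 hours before the cells were grown to confluence, and both cultures were then induced with isobutyl-1-methylxanthine, dexamethasone, troglitazone and insulin, kept in insulin, and taken at day 6 of differentiation. The inducing medium of both groups thus held troglitazone, an agonist of PPAR-γ. Each group is 1 library of the same cell line, so no difference below has a replicate check, and untreated cells were not analysed here.

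Adipocytes store energy as triglyceride, which they assemble at the endoplasmic reticulum by adding fatty acyl chains to a glycerol backbone. Glycerol 3-phosphate, supplied by reduction of a glycolytic intermediate, takes up an acyl chain to become lysophosphatidic acid and a further chain to become phosphatidic acid. A lipin then removes the phosphate, and the diacylglycerol that results receives its last acyl chain from a diacylglycerol acyltransferase. Phosphatidic acid and diacylglycerol are also the entry points to membrane phospholipids, and most steps are served by several isoenzymes encoded by separate genes.

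In total the control ASO library had 58147539 counts and the MALAT1 ASO library 61653549. Levels are given as CPM, counts divided by library sizes scaled with edgeR's TMM factors, and differences as the log2 ratio, the log2 fold change of knockdown over control. Malat1, the targeted gene, had 170402 counts with the control ASO against 45396 with the MALAT1 ASO, 24.7% of the control level. A gene was compared where its counts summed to at least 10 over both libraries, which 17356 genes did, and it was counted as lower or higher where the difference was 2-fold or more. The 95% intervals are exact Clopper-Pearson limits and cover counting error only, not the spread between cultures.

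In MALAT1-knockdown cells 4 genes of the route were lower by 2-fold or more: Gpd1, Agpat2, Lpin1 and Dgat2, which act at steps 1, 3, 4 and 5 of the 5 steps. Of the 10 genes, 9 had enough counts to be compared, and 0 of these were higher by 2-fold or more. Agpat1 was the gene left out for its low counts. Among all genes compared, 6.02% were lower and 3.83% were higher by 2-fold or more. The 9 genes all had a mean above 1000 counts, where such differences were rarer. Among the 8251 genes of that depth, 0.739% were lower and 0.0121% were higher by 2-fold or more. Over the 9 genes the median log2 ratio was -0.72, compared with -0.0031 for all genes and 0.013 for those averaging at least 1000 counts.

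**Figure D1:**
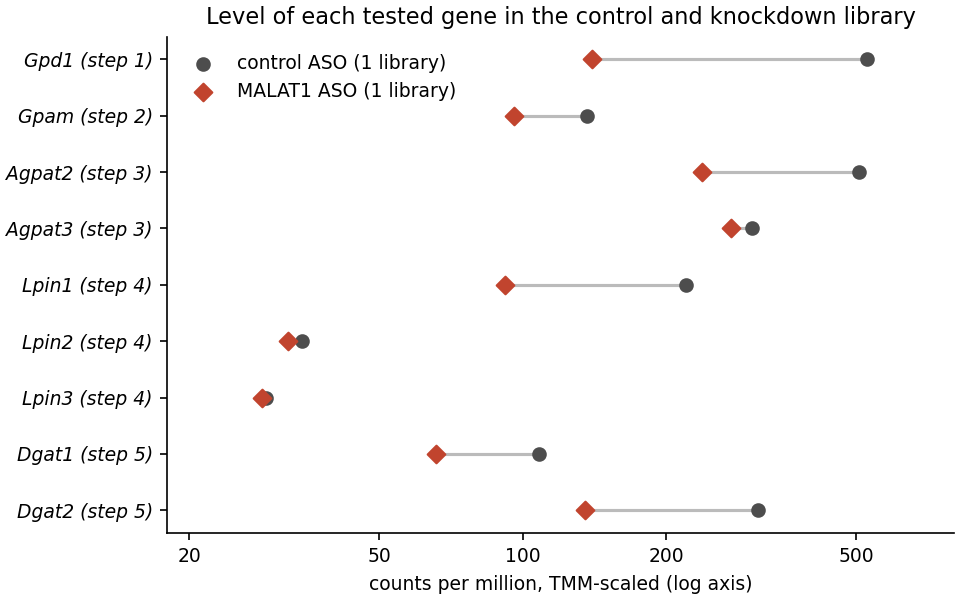
The level of each of the 9 compared genes in CPM (log axis) in the control library (grey circles) and the MALAT1-knockdown library (red diamonds), 1 library each. Gpd1 spans the widest distance, from 527 to 140 CPM, while the symbols of Lpin3 lie on each other at 28.9 and 28.5 CPM.

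Summed over the 9 genes, the route took 2176 CPM in control cells and 1100 CPM in knockdown cells, 50.6% of the control level. Gpd1, Agpat2, Dgat2 and Lpin1 together held 89.4% of that difference in CPM. These 4 were picked for their 2-fold difference in the same libraries, so a large share follows in part from the choice. They also took much of the control sum, at 527, 508, 312 and 220 CPM, not divided by gene length. The other 5 genes, although all below 0 on the log2 scale, held the small remainder. At the same time, 9 of 9 compared adipocyte markers from a list of 10 (Adipoq, Fabp4, Plin1, Lpl, Cidec, Retn, Cfd, Cd36, Slc2a4 and Lep) had log2 ratios below 0, and 7 of them were lower by 2-fold or more. Their summed level was 5226 CPM in control cells and 2042 CPM in knockdown cells. Not all of these markers were abundant: Cd36 had 144 and 99 counts, Slc2a4 26 and 17 with a 95% interval of its log2 ratio from -1.69 to 0.22, and Lep, which encodes leptin, 1 and 0. The part that the number of adipocytes played in the difference between the libraries was not tested. In RNA from whole cultures, fewer adipocytes and less of an mRNA in each adipocyte cannot be told apart.

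**Figure D2:**
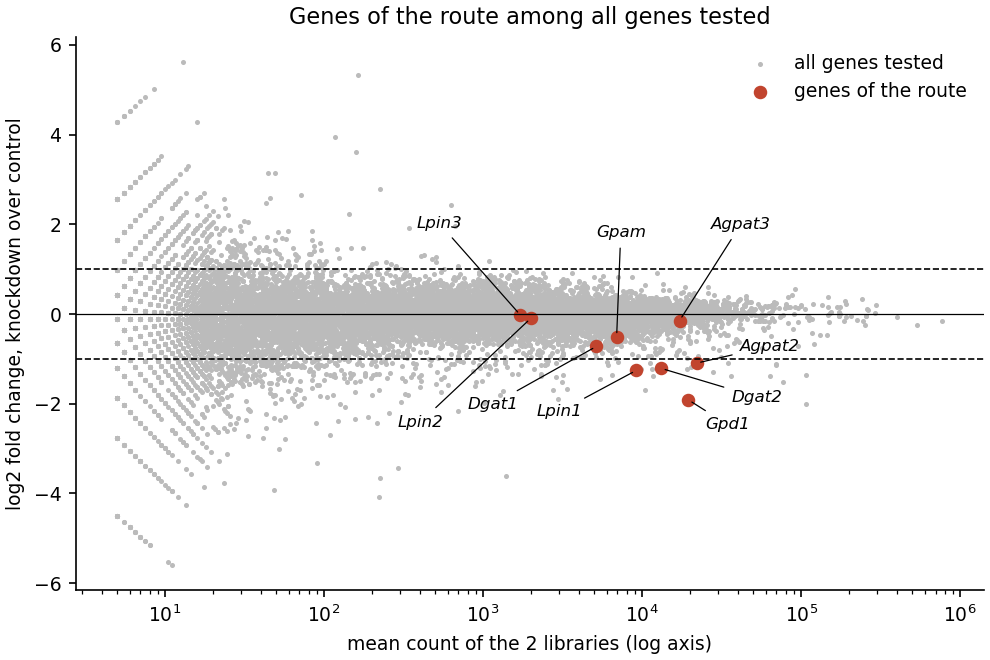
The log2 fold change of each compared gene (knockdown over control) against its mean count in the 2 libraries (log axis), with the 9 genes of the route in red among all 17356 genes in grey and dashed lines at 2-fold. Gpd1, Lpin1, Dgat2 and Agpat2 lie below the lower line at a depth where few genes do, and Agpat3, Lpin2 and Lpin3 lie within the band of the other genes.

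Gpd1 encodes the cytosolic glycerol 3-phosphate dehydrogenase, which makes the backbone from dihydroxyacetone phosphate, and it differed most among the genes of the route. It had 30396 counts with the control ASO against 8692 with the MALAT1 ASO. This was a log2 ratio of -1.91 (95% interval -1.95 to -1.88) and left 26.6% of the control level. Ranked from the lowest log2 ratio, Gpd1 was number 4 of the 8251 genes that averaged at least 1000 counts. Malat1, the targeted gene, was among those ahead of it, with a log2 ratio of -2.01. Of the 8 adipocyte markers with a mean of at least 100 counts, 1 was lower than Gpd1. That marker was Retn, which encodes resistin, with a log2 ratio of -1.99. In GENCODE M21 (GRCm38), Gpd1 spans positions 99717515 to 99725005 of the plus strand of chromosome 15. Its exons share 384 bases with Gm16537, an antisense gene that had 23 counts with the control ASO against 10 with the MALAT1 ASO.

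The isoenzyme Gpd1l differed less. It had 2857 counts with the control ASO against 2769 with the MALAT1 ASO, giving a log2 ratio of -0.15 (95% interval -0.23 to -0.08). Gpd1 accordingly took 91.4% of the counts of both cytosolic dehydrogenase genes in control cells (95% interval 91.1% to 91.7%) and 75.8% in knockdown cells (95% interval 75.0% to 76.6%). Gpd2, the mitochondrial enzyme that oxidises glycerol 3-phosphate, had 6023 and 6074 counts, giving a log2 ratio of -0.09.

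Gpam encodes the mitochondrial glycerol 3-phosphate acyltransferase, which adds the first acyl chain. It had 7874 counts with the control ASO against 5966 with the MALAT1 ASO. The log2 ratio of -0.51 (95% interval -0.56 to -0.46) left 70.4% of the control level, and the difference was smaller than 2-fold. All 8 adipocyte markers had a lower log2 ratio than Gpam. The log2 ratio of Gpd1 minus that of Gpam, the first of 6 pairs of genes set against each other, was -1.41 (95% interval -1.47 to -1.35). Gpam lies at chr19:55067268-55127238 (minus strand).

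The endoplasmic reticulum holds further enzymes for the same step, encoded by Gpat3, which the table lists under its older symbol Agpat9, and by Gpat4. Agpat9 had 2925 counts with the control ASO against 1655 with the MALAT1 ASO, giving a log2 ratio of -0.93. Gpat4 had 9665 and 9041 counts, giving a log2 ratio of -0.20. Among the counts of these 3 genes, the share of Gpat4 was 47.2% in control cells and 54.3% in knockdown cells, that of Gpam 38.5% and 35.8%, and that of Agpat9 14.3% and 9.93%. Their sum stood at 75.6% of the control level.

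**Figure D3:**
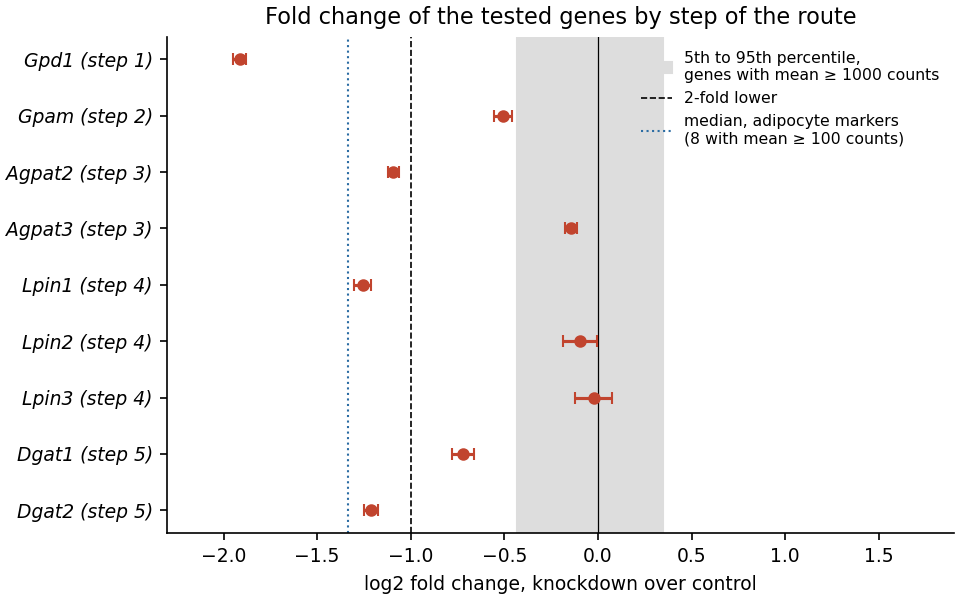
The log2 fold change (knockdown over control) of the 9 compared genes by step, with 95% counting intervals, a grey band over the 5th to 95th percentile of genes that averaged at least 1000 counts, from -0.43 to 0.35, and a dotted line at the adipocyte marker median of -1.34. Agpat3, Lpin2 and Lpin3 lie inside the band, Gpam and Dgat1 lie between the band and the 2-fold line, and Agpat2, Lpin1, Dgat2 and Gpd1 lie past that line.

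The Agpat genes encode enzymes that turn lysophosphatidic acid into phosphatidic acid, and AGPAT2 is the isoenzyme whose loss causes congenital generalised lipodystrophy. Agpat2 had 29293 counts with the control ASO against 14778 with the MALAT1 ASO, giving a log2 ratio of -1.09 (95% interval -1.12 to -1.07), with 46.9% of the control level remaining. Agpat3 had 17446 and 16993 counts, giving a log2 ratio of -0.14 (95% interval -0.18 to -0.11) and 90.5% of the control level. The log2 ratio of Agpat2 minus that of Agpat3 was -0.95 (95% interval -0.99 to -0.91) and does not depend on the scaling of the libraries. Agpat2 took 62.7% of the counts of this pair in control cells (95% interval 62.2% to 63.1%) and 46.5% in knockdown cells (95% interval 46.0% to 47.1%). Per kilobase of merged exons, Agpat2 stayed above Agpat3 in knockdown cells, at 112 against 35.1 CPM per kilobase. Agpat4 had 2150 and 1895 counts and Agpat5 2573 and 2617, and neither enters these shares. Agpat2 lies at chr2:26593057-26604417 (minus strand), and its exons share 64 bases with Egfl7 on the opposite strand, which had 310 and 193 counts. Agpat3 lies at chr10:78269178-78352489 (minus strand).

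Agpat1, at chr17:34604262-34613449 (plus strand), encodes a further enzyme of this step. It had 0 counts in the control and 2 in the knockdown library, under the floor of 3 counts, and no fold change is given. The protein-coding genes round it were also nearly without counts. Of 12 such genes in the table within 100 kb, 7 had 0 counts in both libraries, Rnf5 and Fkbpl among them, and 11 had at most 14 counts in each library. Tnxb had the most, with 53 and 52 counts. How reads of this stretch were assigned is not given in the sources used here, so its low counts were not read as absence of Agpat1 mRNA.

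Lipins dephosphorylate phosphatidic acid to diacylglycerol, and lipin-1 is the main form in adipocytes and also acts on transcription in the nucleus. Lpin1 had 12672 counts with the control ASO against 5709 with the MALAT1 ASO. The log2 ratio of -1.26 (95% interval -1.30 to -1.21) left 41.8% of the control level, with 5 of the 8 adipocyte markers lower still. Lpin2 had 1989 and 2005 counts, giving a log2 ratio of -0.10 (95% interval -0.19 to -0.0048), and the upper limit was 0.017 when libraries were scaled by their totals. Lpin3 had 1669 and 1768 counts, giving a log2 ratio of -0.02 (95% interval -0.12 to 0.07). The log2 ratio of Lpin1 minus that of Lpin2 was -1.16 (95% interval -1.26 to -1.06), and minus that of Lpin3 it was -1.23 (95% interval -1.34 to -1.13). Between Lpin2 and Lpin3 the difference was -0.07, and its 95% interval from -0.20 to 0.06 included 0. In control cells Lpin1 took 77.6% of all lipin counts, Lpin2 12.2% and Lpin3 10.2%. In knockdown cells Lpin1 took 60.2%, Lpin2 21.1% and Lpin3 18.6%. Lpin1 lies at chr12:16535669-16610966 (minus strand), Lpin2 at chr17:71182560-71249817 (plus strand), and Lpin3 at chr2:160880670-160906002 (plus strand).

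**Figure D4:**
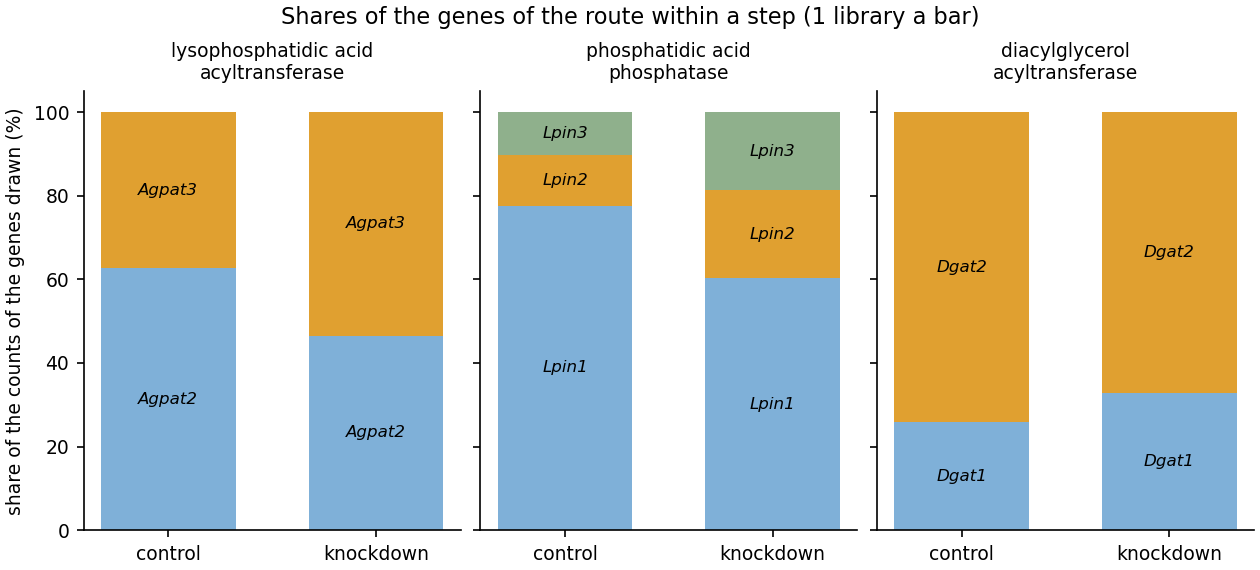
The share of each gene (%, not divided by gene length) in the summed counts of the genes drawn for its step, without other isoenzymes such as Agpat4 and Agpat5, in the control and the knockdown library, 1 library a bar. The shares of Agpat2, Lpin1 and Dgat2 were smaller in the knockdown library, at 46.5%, 60.2% and 67.2%, than in the control library, at 62.7%, 77.6% and 74.2%.

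The last acyl chain is added by DGAT1 or DGAT2, which catalyse the same reaction but belong to unrelated protein families. Dgat2 had 17992 counts with the control ASO against 8369 with the MALAT1 ASO. On the log2 scale this was -1.21 (95% interval -1.25 to -1.17), or 43.2% of the control level. Dgat1 had 6248 and 4081 counts, giving a log2 ratio of -0.72 (95% interval -0.78 to -0.66) and 60.7% of the control level. Dgat2 thus passed 2-fold and Dgat1 did not, and the log2 ratio of Dgat2 minus that of Dgat1 was -0.49 (95% interval -0.56 to -0.42). The share of Dgat2 in the counts of both genes was 74.2% in control cells (95% interval 73.7% to 74.8%) and 67.2% in knockdown cells (95% interval 66.4% to 68.0%). Both genes summed to 47.7% of the control level, the lipins at 53.9% and Agpat2 with Agpat3 at 63.1%. Dgat1 lies at chr15:76502015-76511953 and Dgat2 at chr7:99153658-99182719, both on the minus strand.

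Levels of different genes were compared per kilobase of merged exons in GENCODE M21, as CPM per kilobase. On this scale Agpat2 was highest in control cells at 238, ahead of Gpd1 at 178 and Dgat2 at 101. Agpat3 followed at 38.8, Dgat1 at 35.4, Lpin1 at 22.7 and Gpam at 20.5. Lpin3 at 7.83 and Lpin2 at 2.82 were lowest. In knockdown cells the per-length level of Agpat2 was 112, that of Gpd1 47.2 and that of Dgat2 43.7, so the same 3 genes led in both libraries. Lpin1 at 9.51 then stood below Gpam at 14.4. Per kilobase of the longest transcript instead, Dgat1 at 57.3 stood above Agpat3 at 50.6 in control cells, Dgat2 at 59.6 above Gpd1 at 48.9 in knockdown cells, and Lpin1 at 16.5 above Gpam at 15.6 there, so the order of these neighbours is not settled.

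The sequence just before the transcription start is shown for the genes lower by 2-fold or more that the RefSeq table of promoters holds, Agpat2 and Lpin1, and for Lpin2 and Lpin3, the lipins that differed little. The table has GRCm38.p6 entries for 7 of the 10 genes and none for Gpd1, Dgat1 and Dgat2. Each line gives the 250 bases before the start site, 5′ to 3′ on the strand of the gene, from chr2:26604418-26604667 (minus) for Agpat2, chr12:16610967-16611216 (minus) for Lpin1, chr17:71183282-71183531 (plus) for Lpin2 and chr2:160880420-160880669 (plus) for Lpin3. For Lpin2 and Lpin3 the most upstream of several listed start sites was taken. Capitals mark a match to any motif searched on both strands: AGGTCA, the hexamer bound by nuclear receptors such as PPAR-γ with RXR, a pair of AGGTCA hexamers 1 base apart, TTNCNNAA for C/EBP factors, and CACGTG, the E-box.
Agpat2: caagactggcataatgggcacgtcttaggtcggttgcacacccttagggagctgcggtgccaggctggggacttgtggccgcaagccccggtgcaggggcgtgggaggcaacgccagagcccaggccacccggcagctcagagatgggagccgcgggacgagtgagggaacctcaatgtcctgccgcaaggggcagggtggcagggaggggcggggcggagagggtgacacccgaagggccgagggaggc
Lpin1: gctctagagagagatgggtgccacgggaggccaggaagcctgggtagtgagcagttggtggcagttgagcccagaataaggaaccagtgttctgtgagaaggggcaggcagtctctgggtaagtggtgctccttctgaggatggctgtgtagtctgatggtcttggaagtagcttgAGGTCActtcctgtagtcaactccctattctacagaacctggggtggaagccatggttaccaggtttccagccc
Lpin2: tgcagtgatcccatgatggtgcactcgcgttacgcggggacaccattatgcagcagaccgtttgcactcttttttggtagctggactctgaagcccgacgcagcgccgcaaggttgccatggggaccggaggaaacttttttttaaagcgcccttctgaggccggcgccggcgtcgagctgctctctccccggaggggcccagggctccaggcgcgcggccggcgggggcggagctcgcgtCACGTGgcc
Lpin3: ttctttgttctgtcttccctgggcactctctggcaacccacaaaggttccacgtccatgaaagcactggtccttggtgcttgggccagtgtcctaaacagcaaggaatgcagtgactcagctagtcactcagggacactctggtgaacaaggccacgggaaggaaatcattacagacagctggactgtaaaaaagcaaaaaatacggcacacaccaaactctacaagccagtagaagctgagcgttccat

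Of these stretches, that of Lpin1 held an AGGTCA hexamer at bases -74 to -69 from the start site, and that of Lpin2 held a CACGTG E-box at bases -9 to -4. Those of Agpat2 and Lpin3 held no match. Among the windows not printed, AGGTCA was also found for Gpam, which did not pass 2-fold, and for Agpat1, and TTNCNNAA for Agpat3 and at another start site of Lpin2, and of the lowered genes Agpat2 had neither. Of the 250 bases of the Agpat3 window, 159 lie in exons of Agpat3 in GENCODE M21. Over all 32851 promoter windows of the table, 14% held AGGTCA, 6.02% held CACGTG, 36.8% held TTNCNNAA and 0.0335% held the pair of hexamers 1 base apart. These shares are per window, while the 7 genes had 12 windows, some genes more than 1. The matches describe these letters only and mark no bound site.

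Genes that supply or carry glycerol were examined from a hand-written list of 10, of which 9 were compared and 2 were lower by 2-fold or more. Aqp7, the channel through which adipocytes pass glycerol, had 416 counts with the control ASO against 97 with the MALAT1 ASO, giving a log2 ratio of -2.20 (95% interval -2.54 to -1.89). Pck1, which makes the glycerol backbone from lactate and amino acids in glyceroneogenesis, had 93 and 12 counts, and it is named although its depth is under that set for named genes. Aldoa, the glycolytic aldolase upstream of Gpd1, had 142533 and 97000 counts, giving a log2 ratio of -0.66. Pck2, with -0.24, and Gk, the glycerol kinase, with 0.16, differed less, and the list's median was -0.24 over the 9 genes.

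The other acyltransferases on a list of 14 had a median of -0.22 over 10 compared genes. The gene counted as lower by 2-fold was Mboat2, with 14 and 7 counts and a 95% interval of its log2 ratio from -2.66 to 0.30. Beside Agpat9 and Gpat4, Agpat4 was at -0.29 and Mboat1 at 0.25. Mogat1 and Mogat2, which make diacylglycerol from monoacylglycerol without phosphatidic acid, had at most 14 counts in each library. Of 6 genes that control lipin activity or stability, 0 were past 2-fold in either direction, with a median of 0.01, or -0.05 over the 5 genes with a mean of at least 100 counts. They include Ctdnep1, the phosphatase that activates lipins, with 41 and 50 counts, of which it was not tested whether they reflect its mRNA level or how reads were assigned. Its partner Cnep1r1 had 2927 and 3051 counts, and Btrc and Rptor were at 0.08 and -0.08.

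Fatty acids must be joined to coenzyme A before they enter the route. Of 12 genes for this step, 2 were lower by 2-fold or more, and the list's median was -0.09. Acsl1, the main long-chain acyl-CoA synthetase of adipocytes, had 90171 counts with the control ASO against 37346 with the MALAT1 ASO, giving a log2 ratio of -1.38 (95% interval -1.40 to -1.36). Slc27a5, the other, had 10 counts and 1 count. Dbi, which binds acyl-CoA, was at -0.69, Slc27a1 at -0.47 and Slc27a6 at 0.32.

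Of 8 genes for the breakdown of triglyceride, 4 were lower by 2-fold or more, and the median was -0.95. Pnpla2, which encodes the lipase ATGL, had 46443 and 23306 counts, giving a log2 ratio of -1.10, and Lipe, which encodes hormone-sensitive lipase, had -1.12. Pnpla3 was at -1.70, and G0s2, an inhibitor of ATGL, at -1.35. Of 12 genes for droplet formation and coat, 11 were compared and 4 were lower by 2-fold or more, with a median of -0.67. Plin1 at -1.23 and Cidec at -1.22 were lowest among those of the set depth, ahead of Fitm2 at -0.70 and Tmem159 at -0.67.

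**Figure D5:**
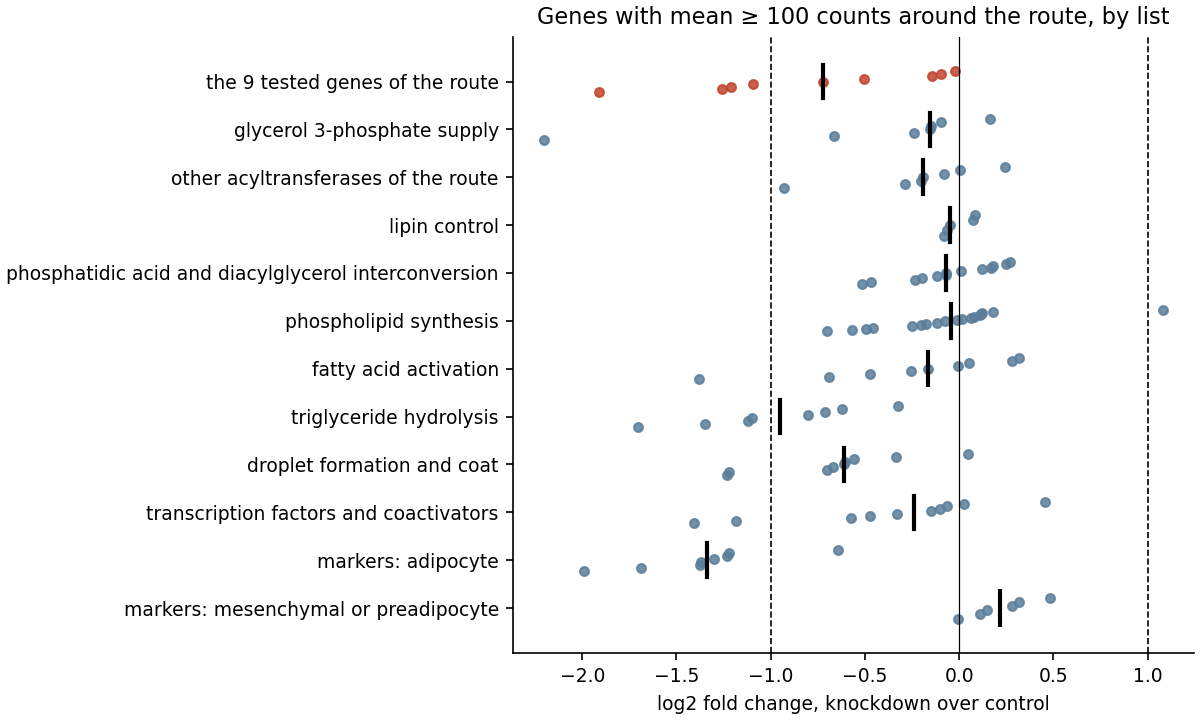
The log2 fold change (knockdown over control) of single genes (points) with a mean of at least 100 counts, and the median of each list (bars), for the 9 compared genes of the route and the lists round it. Over the genes of this depth the medians lie at -0.72 for the route, -0.95 for triglyceride hydrolysis, -1.34 for adipocyte markers and 0.22 for mesenchymal or preadipocyte markers.

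Of 11 transcription factors and coactivators known to act on these genes, 3 were lower by 2-fold or more and the median was -0.33. Cebpa was at -1.41 and Nr1h3, which encodes the oxysterol receptor LXRα, at -1.19. The remaining gene was Mlxipl, which encodes ChREBP, with 11 counts and 1 count. Pparg was at -0.57 and Srebf1 at -0.48. These values are levels of mRNA, and binding of the factors was not measured in these libraries.

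Markers of undifferentiated mesenchymal cells or preadipocytes had a median of 0.28 over 7 of 8 genes, with Dlk1 at 0 counts in both libraries. Their summed level was 7064 CPM in control cells and 7591 CPM in knockdown cells. Most of it came from collagen genes, Col1a1 with 2767 and 3069 CPM and Col3a1 with 2956 and 2943 CPM. Among these markers 1, Cd34, was higher by 2-fold or more, with 19 and 69 counts. Of the osteoblast markers, 3 of 5 were compared, with a median of 0.20, and of the chondrocyte markers 3 of 4, with a median of 0.51 and Acan at 0 counts in both libraries. Markers of other types were scarce. Myod1 and Myog for muscle, and Ptprc and Adgre1 for leukocytes, had 0 counts in both libraries, while Des was at -0.62 and Cd68 at -0.64. The 3 hepatocyte markers summed to 0.763 CPM in control cells and 0.370 CPM in knockdown cells, with Alb at 33 and 20 counts. Both libraries came from the same cell line. Whether these transcripts stood for separate cells, and for any part of the values of the route, was not tested.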

How the data were processed

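RNA-seq of 2 rRNA-depleted libraries, 1 a group, was analysed. The authors deposited raw counts of reads per gene symbol. The submitters' processing notes name HISAT2 and GRCm38, and the counting tool, the annotation, and the treatment of strand and of reads with several matches are not given in the sources used here, so genes that share exonic bases cannot be told apart with certainty. The library kit was directional. Both columns carried the title of their sample, and no row was without a gene name. Library totals were scaled with TMM factors (edgeR 4.0.16, R 4.3.3), which were 0.992 for control and 1.01 for knockdown, and log2 ratios used a prior count of 0.5. edgeR's quasi-likelihood test and DESeq2's test need replicates, so no p-value was computed across genes or for any gene. Intervals of single genes and shares are Clopper-Pearson limits (scipy 1.17.1), and those of differences between genes are exact conditional limits of the odds ratio. Reads copied in PCR make both too narrow. The floor for a count of 0 was 3 counts, or 0.0520 CPM in control and 0.0483 CPM in knockdown cells. The functions were tested on simulated counts that held counting error only and were scaled by library totals. That test does not cover TMM scaling, reads copied in PCR or the spread between cultures.

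The genes of the route and the 16 hand-written lists (9 around the route, 7 of cell type markers) were chosen with earlier results of these data known. List genes absent under their present symbol were looked up under an older one, which found 3. Named were all genes of the route and up to 4 genes a list with the largest absolute log2 fold change at a mean of at least 100 counts, with exceptions stated or given for being at or near 0 counts, to complete a count or as an isoenzyme. Gene positions and lengths are from GENCODE M21, and the annotation behind the counts may differ. Protein sequences were not used here. The alternatives were other scalings (DESeq2 1.42.0 size factors, upper quartile, totals), filters, prior counts and thresholds.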

Additional observations from a re-analysis of the deposited data

How the results depend on the processing

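Each group is 1 library, so no library could be left out and the limit on every value is the unknown spread between cultures. No paired analysis was possible because each group is 1 library. All 45 log2 ratios of the 9 compared genes under another scaling or prior count lay within their 95% counting intervals and kept their sign, with a largest shift of 0.022, and their median ran from -0.72 to -0.70. The count of these genes lower by 2-fold or more was 4 under every alternative that kept this threshold, and 5 at 1.5-fold, where Dgat1 was added. At the depth of these genes the filters and prior counts could hardly change the values, and each scaling shifted all genes alike. The interval of Lpin2 excluded 0 with TMM and DESeq2 size factors and included it with library totals and the upper quartile. Counts over all genes followed the filter and the threshold. With genes of at least 1 count, 3139 were lower and 2774 higher. With at least 10 counts in each library, 422 were lower and 180 higher. At 1.5-fold these were 2066 and 1437, and with the interval's nearer bound past 2-fold 289 and 80. Of 225 values of the lists, 18 moved. Genes with at least 1 count gave medians of -0.45 for glycerol supply and 0.066 for phosphatidic acid and diacylglycerol interconversion. At least 10 counts in each library left 1 lower gene for fatty acid activation, 2 for the droplet list with a median of -0.61, and a median of -0.24 for transcription factors. The 1 lower gene among other acyltransferases became 0 with that filter, with a prior count of 2 and with the nearer bound. The nearer bound also left 1 lower gene for fatty acid activation and 0 higher for phospholipid synthesis and for the interconversion list. At 1.5-fold the lower genes were 4 for glycerol supply, 2 for other acyltransferases, 1 for phospholipid synthesis, 7 for triglyceride hydrolysis and 8 for droplets, and 2 genes of fatty acid activation were higher. Per-length levels used the longest transcript as an alternative chosen after seeing the data, which put Lpin1 at 39.3, Lpin2 at 6.11 and Dgat1 at 57.3 in control cells.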

Other observations

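Phosphatidic acid and diacylglycerol also feed membrane phospholipids, and the genes of these branches went both ways. Of 21 genes for phospholipid synthesis, 19 were compared, with a median log2 ratio of -0.08, 0 lower by 2-fold or more and 1 higher. The gene that was higher was Pcyt1b, of the phosphatidylcholine branch, which had 426 counts with the control ASO against 971 with the MALAT1 ASO, giving a log2 ratio of 1.08 (95% interval 0.92 to 1.25), so that the nearer bound lies under 2-fold. Pcyt1a, its more abundant isoenzyme, had 6103 and 7087 counts. Chpt1, which joins choline phosphate to diacylglycerol, was at -0.70, Pcyt2 of the phosphatidylethanolamine branch at -0.57 and Crls1, the cardiolipin synthase, at -0.50, all below the 5th percentile of -0.43 among genes that averaged at least 1000 counts.

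Of 19 genes that convert phosphatidic acid and diacylglycerol into each other or release phosphatidic acid, 15 were compared, with a median of 0.01 (-0.07 over the 13 with a mean of at least 100 counts), 0 lower by 2-fold or more and 2 higher. Those were Dgki, a diacylglycerol kinase with 22 and 54 counts (95% interval of the log2 ratio 0.45 to 1.97), and Pld2, a phospholipase with 36 and 84 counts (95% interval 0.54 to 1.72). Neither passes when the nearer bound of the interval must reach 2-fold. Plpp2, a phosphatase of the plasma membrane, was at 0.27 and Dgkz at 0.25, while Dgkd was at -0.52 and Plpp6 at -0.47. The kinases Dgkb and Dgkk and the phosphatase Plpp4 had 0 counts in both libraries.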
